A study of Mus musculus with 6 samples.

Results

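The 38 genes described here mark the endothelium, the cell layer that lines blood and lymphatic vessels. They were chosen by name, as genes of all endothelium or of arteries, veins, capillaries or lymphatics, and every name was found among the 55291 genes of the count table. Of the 38, 35 had enough counts to be tested, among 19971 genes in all, while Esm1, Sele and Mmrn1 did not. By vessel class, 19 are pan-endothelial, 4 belong to capillaries and sprouting vessels, 5 to arteries, 5 to veins and 5 to lymphatics.

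The libraries, 1 from each mouse, were made from the shaved back skin of 3 wild-type (WT) mice and 3 littermates with the tight skin (TSK) mutation. The mutation duplicates a part of Fbn1, which encodes fibrillin 1 of the microfibrils, and makes the skin thick and tight. Mice homozygous for it die before birth, and it is carried in the germline on C57BL/6, the strain given for both groups. The labels give an age of 6-8 weeks and female sex, whereas the study's methods describe male mice. Ddx3y, a gene of the Y chromosome, was at 56.7 to 72.8 CPM (counts scaled to a total of 1000000 per library) and Xist at 2.57 to 4.58 CPM over all 6 libraries, so the libraries did not match the labelled sex.

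Endothelial cells sense vascular endothelial growth factor (VEGF), angiopoietins and Notch ligands through receptors that are largely their own, and are held together by junction proteins such as VE-cadherin. Arteries, veins and capillaries add their own transcription factors, connexins and adhesion molecules. Lymphatic vessels, which drain fluid and immune cells from the skin, arise from veins under the transcription factor Prox1 and depend on the VEGF-C receptor Flt4. In bulk skin such genes are read as traces of a minor cell population.

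Library totals were 17561453 to 19219814 counts. Fbn1 was at 262 to 289 CPM in WT and 1538 to 2284 CPM in TSK. TMM factors, which correct library size for a shift in makeup, ran from 0.823 to 1.03 in WT and between 1.06 and 1.13 in TSK, so log2 fold changes on the TMM scale are smaller than ratios of CPM. With library size alone, the median of all genes moved from -0.03 to 0.25 on the log2 scale. Skeletal muscle genes held much of each library, with 8 markers summing to 13.9% to 19.8% of counts in WT and 11.5% to 13.2% in TSK.

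The summed level of the vessel genes was higher in every TSK library than in any WT library. Over the 38 genes it reached 486, 474 and 426 CPM in the 3 WT libraries against 816, 1118 and 837 CPM in the TSK libraries, a mean of 462 ± 31.7 against 924 ± 169 CPM (SD, n = 3). TSK 2 had the highest sum. The log2 fold change was above 0 for all 35 tested genes, with a range of 0.12 to 2.22 and a median of 0.75, beside 47.0% of all tested genes above 0 and a median of -0.03. In bulk tissue, more endothelial cells and more RNA per endothelial cell cannot be told apart.

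In edgeR's quasi-likelihood test with Benjamini-Hochberg adjustment over all genes, 5 of 35 rose at an adjusted p below 0.05 and 0 fell, where 2.71% of all tested genes rose and 0.681% fell. At an unadjusted p below 0.05, 24 vessel genes were higher and 0 lower, beside 12.1% of all genes higher. On the deposited CPM, 31 of the 35 had every TSK library above every WT library (29.1% of all genes), and on TMM-scaled CPM 20 did (14.1%). The 5 that rose were Plvap, Vwf, Tek, Ackr1 and Lyve1. All 5 calls were lost without WT 3, which left 60 called genes in the whole table in place of 678. DESeq2 called 10 vessel genes higher and 0 lower, beside 5.13% and 1.85% of all genes, adding Kdr, Eng, Esam, Robo4 and Aplnr. With edgeR the count was 10 with no low-count filter (2.99% of all genes), 11 with the replicate block (3.33%) and 22 with library size alone (8.44%), and limma-trend on CPM gave 20 (8.87%). At the study's thresholds, an adjusted p below 0.01 and a fold above 2.5, edgeR called 0 vessel genes (0.255% of all genes) and DESeq2 2, Ackr1 and Lyve1 (1.4%).

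**Figure D1:**
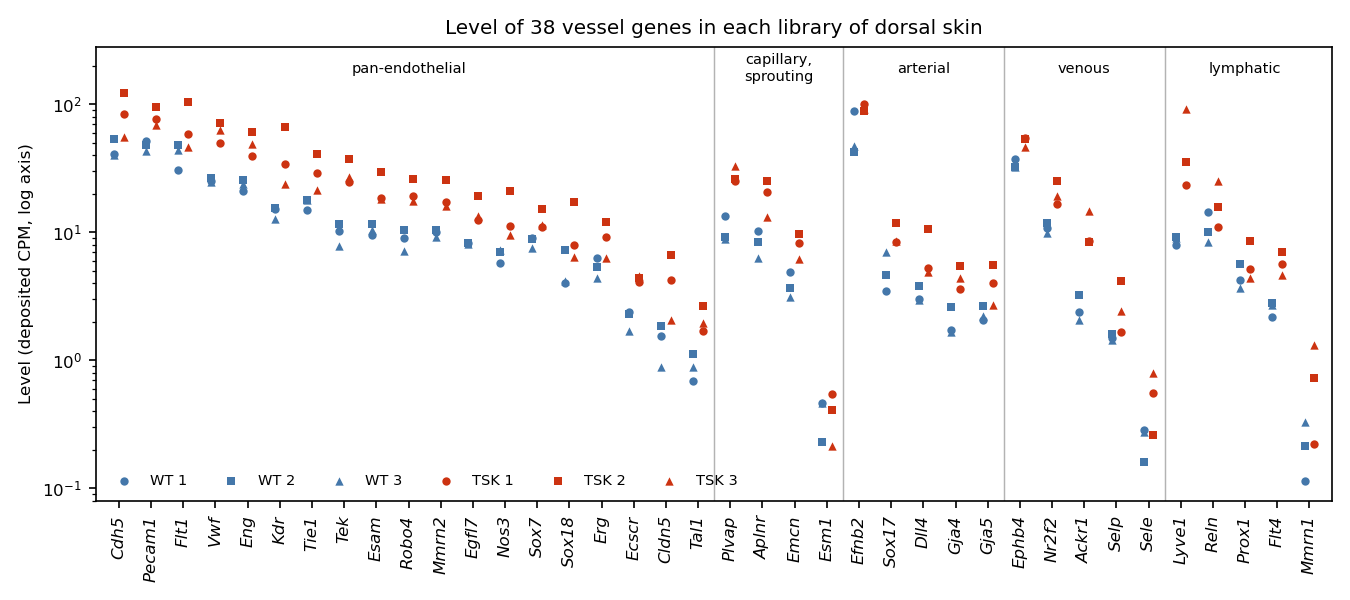
Level of each of the 38 vessel genes in each of the 6 libraries, in deposited CPM on a log axis, with WT in blue and TSK in red and genes grouped by vessel class. TSK points lie above WT points in 31 of the 35 tested genes, and the square of TSK 2 is the highest point in 28 of them.

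Of the receptors in the pan-endothelial class, only Tek passed the edgeR test. Tek is the receptor for angiopoietins that steadies mature vessels. Tek (mm10, chromosome 4, 94739289 to 94874976, plus strand) was at 10.3, 11.6 and 7.81 CPM in WT and 24.7, 37.2 and 26.9 CPM in TSK, so the lowest TSK library held over 2 times the level of the highest WT library. It rose by 1.29 on the log2 scale (SE 0.22, edgeR adjusted p = 0.0202), and the adjusted p was 0.0871 without WT 3. Its partner Tie1, which modulates angiopoietin signalling, was at 14.9, 17.8 and 17.8 CPM in WT and 29.0, 40.6 and 21.3 CPM in TSK (log2 fold change 0.56 with SE 0.25). The groups of Tie1 were apart on CPM and overlapped once scaled by TMM.

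Kdr and Flt1 encode the principal VEGF receptors of blood endothelium, Kdr the main signalling receptor and Flt1 largely a decoy for the ligand. Kdr was at 15.2, 15.4 and 12.6 CPM in WT and 34.2, 66.0 and 23.8 CPM in TSK. The groups did not overlap, but TSK 2 stood far above TSK 3, and a log2 fold change of 1.24 (SE 0.33) gave an edgeR adjusted p of 0.0845, while DESeq2 gave 0.00647. Flt1 was at 30.7, 47.9 and 44.1 CPM in WT and 58.3, 104 and 46.5 CPM in TSK, where TSK 3 lay below WT 2. Its log2 fold change of 0.46 (SE 0.32) fell to 0.06 without TSK 2.

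Eng, a co-receptor for TGF-beta family ligands, was at 21.2, 25.4 and 23.9 CPM in WT and 39.1, 60.7 and 48.7 CPM in TSK (log2 fold change 0.78 with SE 0.19, edgeR adjusted p = 0.0673). Robo4, a receptor that stabilizes the vessel barrier, was at 9.06, 10.4 and 7.15 CPM in WT and 19.2, 26.3 and 17.4 CPM in TSK (log2 fold change 0.95 with SE 0.22, edgeR adjusted p = 0.0576). Neither gene overlapped between the groups, and both missed the threshold in edgeR and passed it in DESeq2 (adjusted p = 0.0105 and 0.00563).

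As the tested vessel genes all had fold changes of the same sign, the 250 bases before the RefSeq transcription start were read for the 25 of 38 genes that the RefSeq table (GRCm38.p6) lists. The windows of 4 pan-endothelial genes are shown, each 5′ to 3′ on the gene's own strand: Tek, which rose, Cldn5, which had the largest log2 fold change of its class, and Eng and Flt1. Capitals mark GGAAG after an A or a C, on either strand, the core of sites bound by ETS factors such as Erg and Fli1. The windows are chr4:94739039-94739288 (plus strand) for Tek, chr16:18776597-18776846 (plus) for Cldn5, chr2:32646345-32646594 (plus) for Eng and chr5:147726012-147726261 (minus) for Flt1.
Tek: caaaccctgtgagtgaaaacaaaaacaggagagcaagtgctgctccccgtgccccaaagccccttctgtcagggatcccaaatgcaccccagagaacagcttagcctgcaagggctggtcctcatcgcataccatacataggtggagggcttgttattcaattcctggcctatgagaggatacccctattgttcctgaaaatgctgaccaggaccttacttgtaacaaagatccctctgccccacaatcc
Cldn5: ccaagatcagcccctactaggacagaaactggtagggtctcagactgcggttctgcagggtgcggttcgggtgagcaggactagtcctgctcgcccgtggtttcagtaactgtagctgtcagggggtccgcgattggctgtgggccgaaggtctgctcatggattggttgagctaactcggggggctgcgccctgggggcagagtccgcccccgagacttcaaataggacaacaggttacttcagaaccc
Eng: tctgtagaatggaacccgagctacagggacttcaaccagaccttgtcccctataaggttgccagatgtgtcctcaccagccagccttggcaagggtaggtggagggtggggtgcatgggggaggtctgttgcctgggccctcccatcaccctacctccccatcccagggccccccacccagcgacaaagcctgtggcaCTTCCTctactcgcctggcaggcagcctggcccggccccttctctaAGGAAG
Flt1: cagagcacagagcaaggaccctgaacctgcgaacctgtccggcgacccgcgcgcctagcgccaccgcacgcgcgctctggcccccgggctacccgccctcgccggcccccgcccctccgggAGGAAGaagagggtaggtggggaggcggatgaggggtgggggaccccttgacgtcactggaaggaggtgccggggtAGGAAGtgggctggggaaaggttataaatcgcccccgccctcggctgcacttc
The Eng and Flt1 windows held 2 matches each and the Tek and Cldn5 windows 0. A match was found in 12 of the 25 windows (48%) and in 39% of 27025 RefSeq windows of the same length. The first listed start was used for Egfl7, Erg, Prox1 and Tal1, which have several. Among tested genes, the median log2 fold change was 0.58 over the 11 with a match and 0.87 over the 11 without, each with 1 gene that rose (Ackr1 and Tek). Other motifs were rarer, each searched on both strands and counted also where it overlapped another. The GATA-type letters AGATAA were in 1 window, that of Tal1, and in 10.3% of all windows. The SOX-type letters ACAATG were also in 1 of the 25 windows, that of Mmrn1, and in 11% of all windows. The FOX-type letters GTAAACA were in 0 of the 25 windows and in 3.09% of all. Such matches describe letters and do not show binding.

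Per kb of exon, Cdh5, the VE-cadherin of adherens junctions, had the highest mean level in both groups, 10.6 CPM per kb in WT and 20.7 in TSK. Cdh5 was at 40.8, 53.1 and 40.2 CPM in WT and 84.0, 121 and 55.6 CPM in TSK (log2 fold change 0.66 with SE 0.29, edgeR adjusted p = 0.245). TSK 3 was close to WT 2, after TMM scaling the groups overlapped, and without TSK 2 the log2 fold change was 0.36. Pecam1 (CD31), the adhesion molecule most used to stain vessels, was at 51.9, 47.8 and 43.5 CPM in WT and 76.2, 94.6 and 68.8 CPM in TSK (log2 fold change 0.46 with SE 0.15, edgeR adjusted p = 0.133). Esam, an adhesion molecule of tight junctions, was at 9.45, 11.6 and 10.4 CPM in WT and 18.6, 29.3 and 18.1 CPM in TSK (0.78, SE 0.23). Both were apart between the groups on either scale. Cldn5, the claudin of endothelial tight junctions, was at 1.54, 1.86 and 0.880 CPM in WT and 4.23, 6.66 and 2.07 CPM in TSK. Its log2 fold change of 1.31 had an SE of 0.46, with 16 to 128 counts per library, and the edgeR adjusted p was 0.159.

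Of the secreted genes, Vwf rose. Vwf encodes von Willebrand factor, the clotting protein stored by endothelium, at chromosome 6, 125546774 to 125686679, on the plus strand. It was at 25.1, 26.6 and 24.6 CPM in WT and 50.1, 71.9 and 63.2 CPM in TSK, with a tight WT group (25.4 ± 1.01 against 61.7 ± 10.97 CPM, SD, n = 3). Every TSK library was well above WT, and it rose by 0.99 on the log2 scale (SE 0.16, edgeR adjusted p = 0.0187, 0.0855 without WT 3). Vwf is also made by megakaryocytes and carried in platelets, and 8 platelet markers summed to 3.98 to 5.97 CPM in WT and 4.26 to 6.41 CPM in TSK, overlapping between the groups, with Gp1ba and Treml1 at 0 counts in most libraries. Of the 8, 2 were tested and 0 passed in edgeR or DESeq2 (1 at an unadjusted p below 0.05, Gp6, at a log2 fold change of -1.21). The part of platelets in the level of Vwf was not tested. Egfl7, an endothelial factor of vessel tube formation, was at 8.31, 8.20 and 8.14 CPM in WT and 12.4, 19.1 and 13.4 CPM in TSK (log2 fold change 0.58 with SE 0.19). Mmrn2, a matrix protein laid down by endothelium, was at 9.97, 10.3 and 9.18 CPM in WT and 17.2, 25.8 and 15.95 CPM in TSK (0.71, SE 0.20). The groups did not overlap for either gene, with edgeR adjusted p-values of 0.135 for Egfl7 and 0.0982 for Mmrn2. Egfl7 shares 264 bases, 7.37% of its exon length, with Gm20532 on the same strand, where reads cannot be told apart.

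Ecscr, an endothelial surface protein linked to migration, differed from its neighbours in that the TSK libraries lay close together, at 4.07, 4.42 and 4.56 CPM, with WT at 2.39, 2.29 and 1.70 CPM (log2 fold change 0.75 with SE 0.21, edgeR adjusted p = 0.0961). Nos3, the endothelial nitric oxide synthase, was at 5.75, 7.03 and 7.20 CPM in WT and 11.2, 20.97 and 9.49 CPM in TSK (0.76, SE 0.31, and 0.35 without TSK 2). Exons of Nos3 overlap Gm15587 on the opposite strand over 25.2% of their length and Atg9b over 7.12%. The strand setting of the counting is not given in the sources used here, so the level of Nos3 is uncertain.

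Of the 4 endothelial transcription factors of the class, 0 passed in edgeR or DESeq2, and only Tal1 had an unadjusted p below 0.05 in edgeR. Erg, an ETS factor that keeps endothelial identity, was at 6.33, 5.34 and 4.39 CPM in WT and 9.25, 12.02 and 6.34 CPM in TSK (log2 fold change 0.51 with SE 0.25). Sox18 was at 4.04, 7.29 and 4.12 CPM in WT and 7.97, 17.2 and 6.36 CPM in TSK (0.72, SE 0.42), and Sox7 at 8.97, 8.84 and 7.48 CPM in WT and 11.05, 15.2 and 11.4 CPM in TSK (0.29, SE 0.18). Without TSK 2 the log2 fold changes were 0.28 for Erg, 0.18 for Sox18 and 0.14 for Sox7, and that of Sox18 was 1.16 without WT 2. These SOX factors share roles in vessel development. On the TMM scale the groups overlapped for all 3 of these genes. Tal1, a factor of early blood and endothelial development, was at 0.683, 1.12 and 0.880 CPM in WT and 1.70, 2.65 and 1.96 CPM in TSK (0.93, SE 0.33, edgeR adjusted p = 0.167), from 12 to 51 counts. Tal1 was apart between the groups at this low depth.

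In the class of capillaries and sprouting vessels, 1 of 3 tested genes rose and the median log2 fold change was 0.97, above the 0.75 of the pan-endothelial class, the 0.63 of the arterial and lymphatic classes and the 0.61 of the venous class. This order rests on few genes and did not hold without WT 3, where the lymphatic median was 0.93 and the capillary median 0.84. The lymphatic median was also above the pan-endothelial without WT 1 (0.72 against 0.65), WT 2 (1.03 against 0.90), TSK 1 (0.865 against 0.860) or TSK 2 (0.58 against 0.48). The differences between classes were not tested. Plvap, which forms the diaphragms of capillary pores and caveolae and marks permeable vessels, had the smallest adjusted p of all vessel genes. It lies at chromosome 8, 71497765 to 71511752, on the minus strand, and was at 13.4, 9.10 and 8.85 CPM in WT and 25.4, 26.2 and 33.0 CPM in TSK (10.5 ± 2.58 against 28.2 ± 4.20 CPM, SD, n = 3). All TSK libraries stood far above WT, and TSK 3 rather than TSK 2 was the highest. On the log2 scale it rose by 1.16 (with SE 0.15, edgeR adjusted p = 0.0110, 0.0631 without WT 3).

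Aplnr, the apelin receptor of sprouting and venous endothelium, was at 10.1, 8.41 and 6.32 CPM in WT and 20.7, 25.0 and 13.04 CPM in TSK (log2 fold change 0.97 with SE 0.26, edgeR adjusted p = 0.0796). Emcn, a sialomucin of capillaries and veins, was at 4.90, 3.67 and 3.11 CPM in WT and 8.30, 9.62 and 6.15 CPM in TSK (0.77, SE 0.23, edgeR adjusted p = 0.102). Both were apart between the groups without passing the test. Esm1, a proteoglycan that marks tip cells of sprouts, was near the detection limit in every library, at 0.229 to 0.467 CPM in WT and 0.216 to 0.549 CPM in TSK, which is 4.07 to 9.98 estimated counts. A difference in Esm1 was not detectable at this depth.

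**Figure D2:**
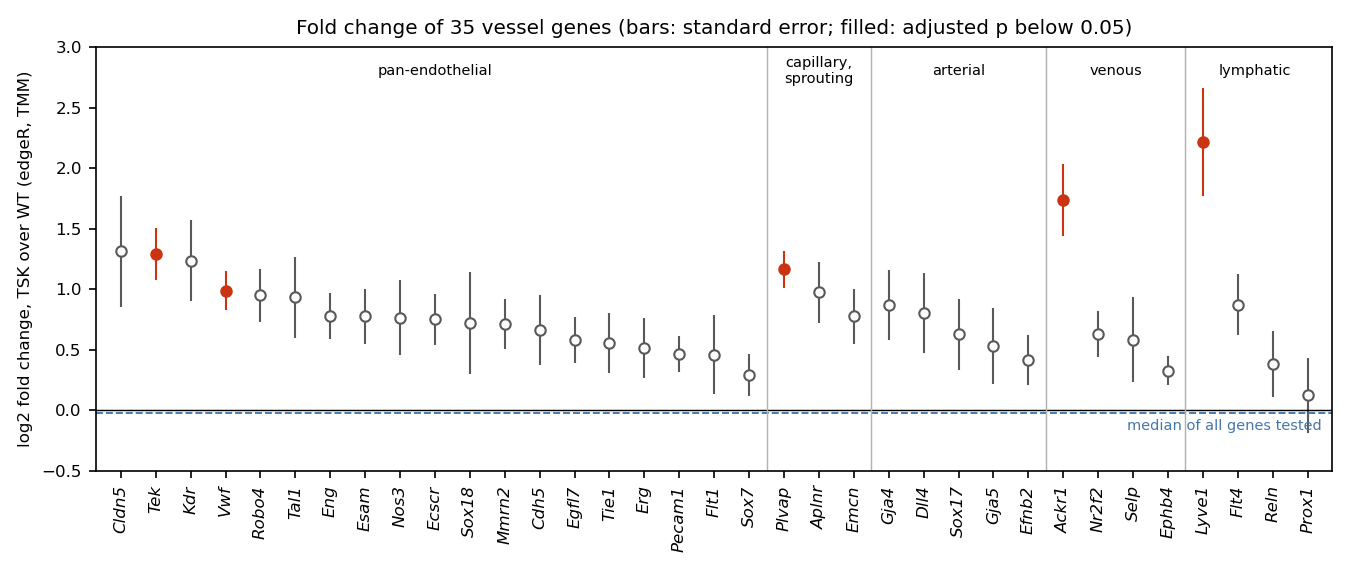
Log2 fold change, TSK over WT, of the 35 tested vessel genes from edgeR with TMM scaling, by vessel class, with bars of 1 standard error and filled points for an adjusted p below 0.05. All points lie above 0 and above the median of all genes (-0.03), and the 5 filled points are Tek, Vwf, Plvap, Ackr1 and Lyve1.

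None of the 5 arterial genes passed the test in edgeR or DESeq2, with log2 fold changes of 0.42 to 0.87 and 2 of the 5 at an unadjusted p below 0.05 in edgeR. Gja4, the connexin 37 of arterial gap junctions, was at 1.71, 2.61 and 1.65 CPM in WT and 3.63, 5.41 and 4.40 CPM in TSK (0.87, SE 0.29, edgeR adjusted p = 0.143). Dll4, the Notch ligand of arterial and tip cells, was at 3.02, 3.78 and 2.97 CPM in WT and 5.28, 10.7 and 4.93 CPM in TSK (0.80, SE 0.33, and 0.36 without TSK 2). Only Gja4 stayed apart on the TMM scale. Sox17, a transcription factor of arterial fate, was at 3.47, 4.63 and 7.04 CPM in WT and 8.41, 11.9 and 8.48 CPM in TSK (0.63, SE 0.30, with 0.38 without WT 1 and 0.97 without WT 3), and 16.9% of its exon length is shared with Gm37587 on the other strand. Gja5, connexin 40, was at 2.06, 2.65 and 2.22 CPM in WT and 4.02, 5.50 and 2.69 CPM in TSK (0.53, SE 0.31, and 0.26 without TSK 2). A stretch of 856 bases of Gja5 matches Zfp697 at 99.4% identity, so its level is uncertain.

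Efnb2, the ephrin that arterial cells show to venous EphB4, had its WT libraries far apart, at 88.7, 42.5 and 47.4 CPM, with TSK at 100.5, 89.3 and 92.0 CPM (log2 fold change 0.42 with SE 0.21, edgeR adjusted p = 0.304). WT 1 lay just below the TSK range. Without WT 1 the log2 fold change was 0.72 and Efnb2 passed the test (edgeR adjusted p = 0.0265). Efnb2 and Ephb4 are also expressed outside vessels, in epidermis among other places. The summed level of 8 keratinocyte markers was 5941 CPM in WT 1 and 6162 CPM in TSK 1, the libraries with the highest Efnb2 of each group, and 3035 to 4050 CPM in the others. Of these 8 markers, 1 rose in edgeR (Lor, of the cornified layer), 0 fell, and 4 had log2 fold changes below 0 (Krt14 at -0.61, Krt5 at -0.60, Trp63 at -0.27 and Krt1 at -0.23). The part of keratinocytes in the level of Efnb2 was not tested.

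Among venous genes, Ackr1 rose and the other 3 tested did not pass. Ackr1 is the chemokine-binding receptor of post-capillary venules, where leukocytes leave the blood. It was at 2.38, 3.22 and 2.07 CPM in WT and 8.58, 8.40 and 14.7 CPM in TSK (2.56 ± 0.595 against 10.6 ± 3.61 CPM, SD, n = 3). The lowest TSK library was above 2 times the highest WT library, and it rose by 1.73 on the log2 scale (SE 0.30, edgeR adjusted p = 0.0223, 0.101 without WT 3). Ackr1 lies at chromosome 1, 173331886 to 173333750, on the minus strand, and shares 361 bases, 25.7% of its exon length, with Cadm3 on the same strand. Cadm3, an adhesion molecule best known from nerve, rose as well, from 15.8, 17.8 and 12.5 CPM to 38.9, 51.7 and 99.1 CPM (log2 fold change 1.74 with SE 0.32, edgeR adjusted p = 0.0288, 0.122 without WT 3). Reads of the shared part cannot be told apart, so the level of Ackr1 is uncertain. Cadm3 was named because of this overlap, after its values were seen. Ackr1 is also known from red blood cells, whose 8 markers summed to 47.4 to 152 CPM in WT and 112 to 313 CPM in TSK, overlapping between the groups and highest in TSK 2 (6 of 8 tested, 0 past the test in edgeR or DESeq2 and 0 at an unadjusted p below 0.05). Ackr1 was highest in TSK 3. The part of red blood cells in the level of Ackr1 was not tested.

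Nr2f2 (COUP-TFII), the transcription factor of venous fate, was at 10.7, 11.7 and 9.84 CPM in WT and 16.8, 25.3 and 19.1 CPM in TSK (log2 fold change 0.63 with SE 0.19, edgeR adjusted p = 0.107). Ephb4, the venous receptor for ephrin B2, was at 37.6, 32.0 and 32.2 CPM in WT and 54.1, 53.5 and 46.7 CPM in TSK (0.33, SE 0.12, edgeR adjusted p = 0.178). Both were apart between the groups by a modest margin. Selp, the P-selectin that captures leukocytes, was at 1.48, 1.60 and 1.43 CPM in WT and 1.65, 4.16 and 2.44 CPM in TSK (0.58, SE 0.35), and TSK 1 was hardly above WT. Its log2 fold change was 0.16 without TSK 2. Selp also shares 9.93% of its exon length with Gm16548 and 4.21% with Gm16587, both on the opposite strand. Sele, the E-selectin of inflamed endothelium, was below the filter, with 3 to 5 counts in WT and 5 to 15 counts in TSK, and its groups overlapped on CPM.

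Of the lymphatic genes, Lyve1 had the largest log2 fold change of all 35 vessel genes. Lyve1 is the hyaluronan receptor of lymphatic capillaries and is also carried by a class of tissue macrophages. Its gene lies at chromosome 7, 110850607 to 110863239, on the minus strand, and was at 7.97, 9.10 and 8.96 CPM in WT and 23.6, 35.1 and 91.1 CPM in TSK. The WT libraries lay close together, and TSK 3 was more than 2 times the other TSK libraries. Lyve1 rose by 2.22 on the log2 scale (SE 0.45, edgeR adjusted p = 0.0352), and by 1.48 without TSK 3 (edgeR adjusted p = 0.0269). The call was lost without WT 1, WT 2 or WT 3 (adjusted p = 0.0605, 0.0860 and 0.134). Per kb of exon, the mean level of Lyve1 went from 2.97 CPM per kb in WT to 17.1 in TSK, where only Cdh5 was higher among the tested vessel genes.

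Of the other lymphatic genes 3 were tested, and 0 passed in edgeR or DESeq2 (1, Flt4, at an unadjusted p below 0.05 in edgeR). Flt4, the receptor for VEGF-C, was at 2.16, 2.82 and 2.69 CPM in WT and 5.61, 7.02 and 4.61 CPM in TSK, apart between the groups (log2 fold change 0.87 with SE 0.26, edgeR adjusted p = 0.103). Prox1, the factor that sets lymphatic fate, was at 4.27, 5.64 and 3.68 CPM in WT and 5.17, 8.58 and 4.40 CPM in TSK. Its groups overlapped, its log2 fold change of 0.12 (SE 0.31) was the smallest of all 35 and it was -0.21 without TSK 2. Reln, a secreted glycoprotein of lymphatic endothelium, nerve and other cells, was at 14.4, 9.97 and 8.45 CPM in WT and 11.01, 15.7 and 24.9 CPM in TSK, with TSK 1 inside the WT range (0.38, SE 0.27). Its log2 fold change was 0.04 without TSK 3 and 0.60 without TSK 1. Mmrn1, a matrix and platelet granule protein of lymphatics, was below the filter, with 2, 4 and 6 counts in WT and 4, 14 and 25 counts in TSK. TSK 3, the library with the most Lyve1, was highest, and with no low-count filter the log2 fold change of Mmrn1 was 1.46 (edgeR adjusted p = 0.307).

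Set against the pan-endothelial sum of the same library, Lyve1 came to 2.88%, 2.85% and 3.25% in WT and 4.60%, 4.52% and 19.7% in TSK, with all TSK libraries above WT. The other 4 lymphatic genes came to 7.56%, 5.83% and 5.49% in WT and 4.29%, 4.13% and 7.64% in TSK, overlapping between the groups. Sums of 8 macrophage markers were 269, 198 and 266 CPM in WT and 345, 490 and 1006 CPM in TSK, so TSK 3 was highest for macrophage markers as it was for Lyve1. All 8 macrophage markers passed the filter, and 0 of 8 passed the edgeR test at an adjusted p below 0.05 (6 at an unadjusted p below 0.05, and 4 with DESeq2). Cd163, a scavenger receptor of tissue macrophages, had the largest log2 fold change of the 8 (1.44). It was at 25.2, 37.7 and 40.2 CPM in WT and 64.8, 94.0 and 191 CPM in TSK. The markers did not move alike: Cd68 (0.04), Adgre1 (0.23) and C1qb (0.95) overlapped between the groups on CPM. The part of macrophages in the level of Lyve1 was not tested. The arterial sum was 17.6% to 35.8% of the pan-endothelial sum in WT and 15.8% to 24.4% in TSK, and the venous sum 15.3% to 19.0% and 11.8% to 18.1%, so neither share was apart between the groups. Efnb2 alone held 42.5 to 88.7 CPM of an arterial sum of 56.2 to 99.0 CPM in WT, and 89.3 to 100.5 of 112 to 123 CPM in TSK. Ephb4 held 32.0 to 37.6 CPM of a venous sum of 45.8 to 52.4 CPM in WT, and 46.7 to 54.1 of 81.6 to 91.6 CPM in TSK. These shares thus rest largely on Efnb2 and Ephb4.

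Within the TSK group the same library was usually highest. TSK 2 held the highest level of 28 of the 35 tested genes, TSK 3 of 5 (Ecscr, Plvap, Ackr1, Lyve1 and Reln) and TSK 1 of 2 (Efnb2 and Ephb4). The mean log2 level of the pan-endothelial genes, relative to the WT mean on the TMM scale, was 0.64, 1.17 and 0.39 in TSK 1 to 3 and -0.21, 0.30 and -0.09 in WT 1 to 3. TSK 3 was thus close to WT 2 for this class. For the lymphatic class, a mean of 4 tested genes, the order differed, with 0.48, 0.94 and 1.04 in TSK 1 to 3. Of these genes Lyve1 and Reln were highest in TSK 3, and Flt4 and Prox1 in TSK 2. This order thus leans on Lyve1, at 91.1 CPM in TSK 3 and 35.1 CPM in TSK 2. Without TSK 2 the median log2 fold change was 0.47 over all tested vessel genes in place of 0.75, and 0.48 over the pan-endothelial class. For 14 of the 35 genes the log2 fold change without TSK 2 was lower by a factor above 1.5, among them Kdr (0.74), Cldn5 (0.87), Tie1 (0.30) and Egfl7 (0.37).

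Markers of other cells moved with the groups too. The adipocyte list stood at 1.59, 3.50 and 1.10 above the WT mean in TSK 1 to 3 on the same log2 scale, so TSK 2 was highest for adipocyte as for most vessel genes, and 3 of its 7 genes rose in edgeR (Plin1, Lep and Cfd) and 5 in DESeq2. Car3, the most abundant of the 7, had a log2 fold change of -0.46. The other 6 genes had log2 fold changes above 0. The summed level of the list overlapped between the groups, at 2611 to 3062 CPM in WT and 2556 to 4525 CPM in TSK. Its share of the pan-endothelial sum was 944% to 1056% in WT and 504% to 583% in TSK. Car3 alone held 2507 to 2972 CPM in WT and 2217 to 2967 CPM in TSK. The sum and the share thus rest largely on Car3 and do not describe the other adipocyte genes. On the log2 scale used for the adipocyte list, the hair follicle list stood at 1.91, 2.34 and 1.98 in TSK and at 0.54, 0.08 and -0.62 in WT. Of its 6 tested genes 4 rose in edgeR (Krt25, Krt27, Krt71 and Lef1) and 3 in DESeq2. Krt25, Krt27 and Krt71 had 0 to 23.8 estimated counts in WT and passed the filter only through the TSK libraries. The list mean thus leans on genes near the floor in WT. Tchh, the most abundant, was at 24.2 to 52.9 CPM in WT and 43.1 to 50.4 CPM in TSK (log2 fold change -0.16). The 8 fibroblast markers summed to 6378 to 9680 CPM in WT and to 20597 to 47736 CPM in TSK, and 2 rose in edgeR (Dpt and Pi16) and 6 in DESeq2. Mast cell markers summed to between 8.48 and 9.42 CPM in WT and between 12.9 and 28.7 CPM in TSK, with 0 of 6 past the test in edgeR, 5 at an unadjusted p below 0.05 and 2 called by DESeq2. The mural cell list, pericytes and smooth muscle that wrap vessels, summed to 473 to 621 CPM in WT and 721 to 939 CPM in TSK, with 1 of 9 past the test in edgeR (Myh11, the smooth muscle myosin, log2 fold change 0.79) and 5 in DESeq2, while Abcc9 had a log2 fold change of -0.46. As a share of the pan-endothelial sum, mural markers stood at 171% to 200.2% in WT and at 121% to 156% in TSK, lower in every TSK library. Abcc9, the most abundant of the 9 by mean level, held 172 to 248 CPM in WT and 175 to 227 CPM in TSK. The lower share thus leans on Abcc9, and the share of the other mural markers was not computed. Skeletal muscle markers had log2 fold changes of -1.09 to -0.66, and of the 8, 0 fell in edgeR, 6 were at an unadjusted p below 0.05 and 7 fell in DESeq2. Ribosomal RNA genes held 7.81%, 6.87% and 6.11% of counts in WT and 5.46%, 2.68% and 4.76% in TSK, lowest in TSK 2, the library highest for most vessel genes. With muscle and ribosomal RNA genes left out of the scaling, the 5 calls among vessel genes were the same. The edgeR calls named or counted for these lists were also lost without WT 3. Those of Myh11, Plin1, Lep, Cfd, Krt27, Krt71 and Lef1 were lost without WT 2 as well, and those of Plin1, Cfd and Krt27 without WT 1. Dpt, Myh11, Krt27, Krt71 and Lef1 lost theirs without TSK 2 and without TSK 3, and Myh11 and Lef1 without TSK 1. The part of these cell types and of ribosomal RNA in the vessel gene levels was not tested.

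**Figure D3:**
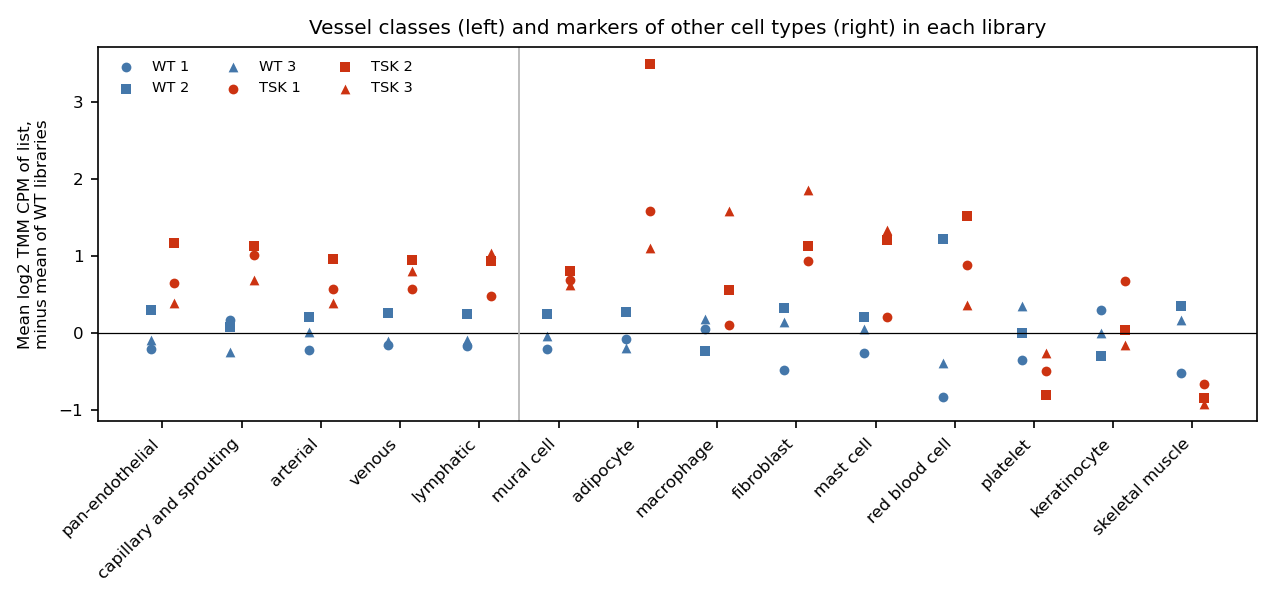
Mean log2 TMM-scaled CPM of the 5 vessel classes and of 9 marker lists of other cells in each library, minus the mean of the WT libraries. TSK 2 is the highest point of the pan-endothelial (1.17) and adipocyte (3.50) lists, and TSK 3 of the lymphatic (1.04) and macrophage (1.58) lists. The lymphatic point of TSK 3 includes Lyve1, while Flt4 and Prox1 were highest in TSK 2.

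Genes of the pathways that feed these receptors were read from 9 further lists. Of 82 genes 76 were tested, and 7 rose and 0 fell in edgeR, beside 2.71% and 0.681% of all genes. All 7 calls were lost without WT 3, Nrp2, Ramp2, Cd34 and Fli1 also lost theirs without WT 2 and without TSK 2, and Nrp2, Ramp2 and Fli1 without TSK 3. Ramp2 and Fli1 lost theirs without TSK 1 as well, Fli1 also with the replicate block, and leaving out 1 library gave 0 to 12 calls. DESeq2 called 19 higher and 1 lower (5.13% and 1.85% of all genes), and library size alone gave 29 higher in edgeR (8.44% of all genes). The lower 1 was Piezo1, a mechanosensitive channel, at 326, 231 and 291 CPM in WT and 180, 115 and 235 CPM in TSK (edgeR log2 fold change -0.95, adjusted p = 0.0756, 0.0188 with no low-count filter, and 0.00316 in DESeq2). Of the 76, 68 had a log2 fold change above 0, as did 47.0% of all genes, and the median was 0.61. The VEGF ligands did not pass: Vegfa had a log2 fold change of -0.20, Vegfb -0.07, Vegfd -0.20, Pgf 0.17 and Vegfc, the ligand of Flt4, 0.59. With 1 library left out the sign was not stable for Vegfa (-0.43 to 0.21), Vegfb (-0.40 to 0.19) and Pgf (-0.04 to 0.51), and Vegfd ranged from -0.34 to -0.04. Vegfa was at 51.6, 102 and 67.7 CPM in WT and 74.5, 89.8 and 76.3 CPM in TSK, so its groups overlapped. The co-receptor Nrp2, which binds VEGF-C on lymphatic and venous cells, rose from 29.1, 22.01 and 27.3 CPM to 45.3, 57.6 and 59.0 CPM (log2 fold change 0.77 with SE 0.13, edgeR adjusted p = 0.0202).

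The ligands of Tek were low. Angpt1, its activating ligand, had a log2 fold change of 0.39 (0.04 to 0.63 with 1 library left out) and Angpt2, the context-dependent ligand released by endothelium, 0.68, from 1.70 to 2.30 CPM in WT and 2.66 to 4.53 CPM in TSK, and Angpt4 was below the filter. Neither of the tested ligands passed in edgeR (adjusted p = 0.536 and 0.176). Of the Notch ligands outside the 38, Jag1 had a log2 fold change of 0.36, Jag2 -0.43 and Dll1 -0.32, and 0 of 10 Notch genes passed (5 at an unadjusted p below 0.05, and 1 with DESeq2). Apln, the ligand of Aplnr, had 0.61 (0.41 to 0.82 with 1 library left out) and Adm, adrenomedullin, 0.24 (0.02 to 0.44), while Apela was at 0 counts in every library. Ramp2, which pairs with the calcitonin receptor-like receptor to bind adrenomedullin, rose from 7.53, 10.2 and 9.42 CPM to 19.5, 31.1 and 21.7 CPM (log2 fold change 1.11 with SE 0.23, edgeR adjusted p = 0.0405).

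In the BMP and ALK1 list, Id3, a target gene of BMP signalling, rose from 12.8, 13.7 and 11.8 CPM to 27.4, 36.9 and 34.3 CPM (log2 fold change 1.08 with SE 0.16, edgeR adjusted p = 0.0147). Among 30 other endothelial genes all had a log2 fold change above 0, with a median of 0.65, and 3 rose: Cd34 (0.94), a sialomucin of endothelium and of dermal stromal cells, Fli1 (0.80), an ETS factor, and Klf2 (0.88), a factor induced by blood flow. For each of the 3 the groups did not overlap. Lrg1, a secreted glycoprotein placed with the venous list, rose the most, from 7.18, 8.46 and 6.82 CPM to 22.1, 46.9 and 23.4 CPM (log2 fold change 1.75 with SE 0.30, edgeR adjusted p = 0.0227). Lrg1 is also made by liver and neutrophils, and TSK 2 was its highest library. The leukocyte adhesion genes Vcam1 and Icam1 had log2 fold changes of 0.03 and 0.02, and their groups overlapped on the TMM scale. Both signs turned when 1 library was left out, with ranges of -0.16 to 0.12 for Vcam1 and -0.06 to 0.14 for Icam1.

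**Figure D4:**
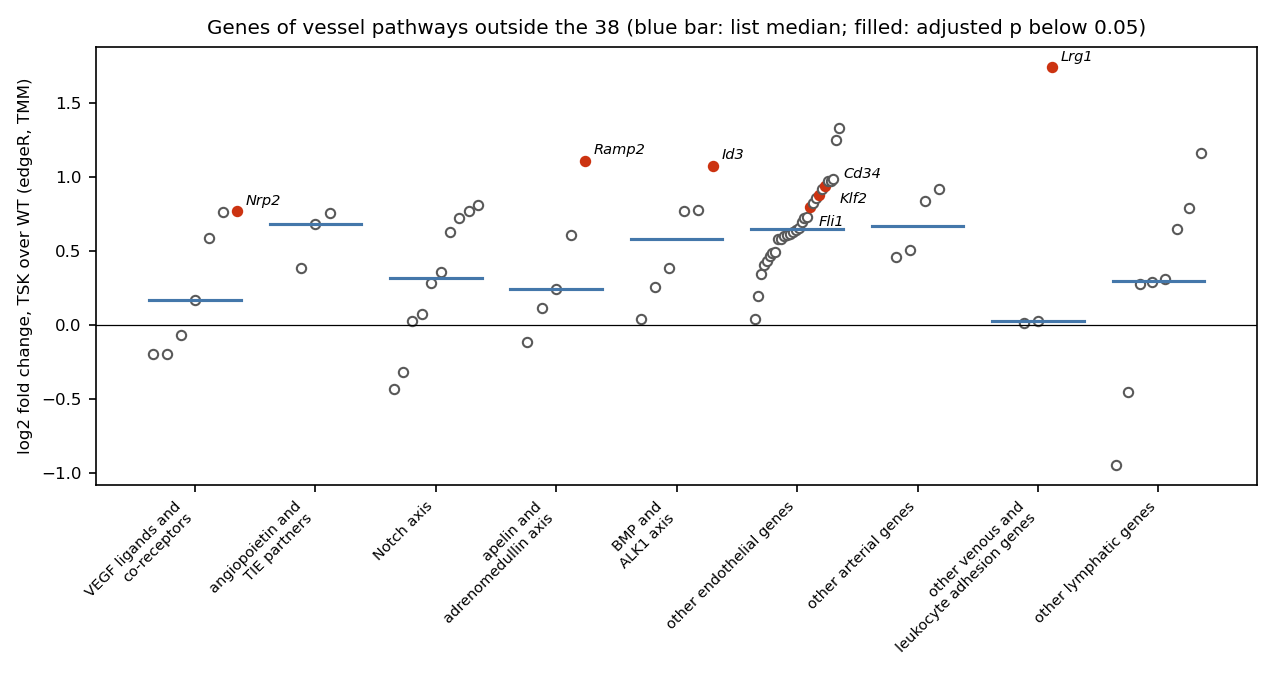
Log2 fold change, TSK over WT, of 76 tested genes of 9 vessel pathway lists outside the 38 genes, with a blue bar at each list's median and filled points for an edgeR adjusted p below 0.05. The 7 filled points are named, and the medians run from 0.03 in the venous and leukocyte adhesion list to 0.68 in the angiopoietin list.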

How the data were processed

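The authors extracted total RNA from dorsal skin, depleted ribosomal RNA, made stranded libraries and sequenced single-end reads. Per the labels and the study's methods, reads were aligned with STAR to mm10 and quantified in Partek 11.0. The deposited table of estimated counts per gene and the deposited table of CPM, each count scaled to 1000000 per library, were used. In each library 43.3% to 45.4% of counts above 0 were whole (within 0.001), so the table named as raw holds estimated counts, which were rounded. The test had been planned for raw counts. The CPM are the authors' values and were not recomputed.

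The groups came from the genotype labels. EdgeR 4.0.16 (R 4.3.3) was fitted on the whole table, with TMM, filterByExpr, a quasi-likelihood test and Benjamini-Hochberg adjustment over 19971 genes. An adjusted p below 0.05 counted as a call. The study used DESeq2 with an adjusted p below 0.01 and a fold above 2.5, and DESeq2 1.42.0 and limma 3.58.1 served as alternatives. All 3 tools were tested on simulated data. Exon lengths and overlaps are from GENCODE M21, whose gene positions match 95.68% of the table once 1 is taken off each end. Libraries of a group were not duplicates (lowest chi-square per degree of freedom 8.02). The labels do not say whether the replicate numbers pair the mice, so the main fit used no pairing. Deviations from the group means correlated at 0.01, 0.17 and -0.09 between mice of the same number, which cannot settle whether they were paired. P-values measure the spread between these mice.

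All 38 genes are named with values. Of the pathway genes, those past an adjusted p of 0.05 and the ligands of the VEGF, angiopoietin, Notch and apelin lists are named. Genes named beside a level (Cadm3, Zfp697, Cd163, Myh11, Abcc9, Piezo1, Vcam1, Icam1, and the named platelet, adipocyte, fibroblast, keratinocyte, macrophage and hair follicle genes) were added after their values were seen. The vessel genes and all lists were chosen with earlier results of these data known, so no list was tested as a set.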

Additional observations from a re-analysis of the deposited data

How the results depend on the processing

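The number of vessel genes that rose, 5, changed with scaling, tool and filter. It was 22 with library size alone, 20 with limma-trend on CPM at a pseudocount of 1 and 20 at 0.1, 10 with DESeq2, 10 with no low-count filter and 11 with the replicate block, although the labels do not say that the replicate numbers pair the mice. The 5 genes were called in each of these. At the study's thresholds it was 0 in edgeR and 2 in DESeq2, the last chosen after seeing the data. Without 1 library it was 0 to 7: 0 without WT 3, and 7 without TSK 3, which added Kdr and Aplnr. No vessel gene fell in any of these. The 5 stayed at 5 with median-of-ratios scaling, with muscle and ribosomal RNA genes left out of the scaling and with a filter of CPM above 1 in 3 libraries.

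The median log2 fold change of the vessel genes was 1.03 with library size alone and 0.47 to 0.90 without 1 library, lowest without TSK 2. With library size alone the class medians were 1.24 (capillary and sprouting), 0.92 (arterial), 0.90 (venous) and 0.91 (lymphatic), and limma-trend at a pseudocount of 0.1 gave 1.21 for the capillary and 0.95 for the arterial class. The lymphatic median was 0.58 to 1.03 without 1 library, highest without WT 2. Of 525 values of single genes under an alternative, 450 stayed on their side of the threshold, 67 newly passed, 7 no longer passed and 1 changed direction: Prox1, at -0.21 (without TSK 2) to 0.41 with 1 library left out and at 0.42 with library size alone. Where no construction shows it, the cause was not tested. With no low-count filter, Mmrn1 (log2 fold change 1.46, edgeR adjusted p = 0.307), Sele (0.87, 0.588) and Esm1 (-0.17, 0.930) did not pass, nor did they in DESeq2 (0.410, 0.693 and 0.971).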
